A study of Mus musculus with 8 samples.

Results

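The endoplasmic reticulum (ER) folding and degradation genes are 34 genes chosen by symbol: luminal chaperones, disulfide enzymes, the IRE1 and XBP1 stress sensor arm, and factors of ER-associated degradation. All 34 were rows of the deposited table of 55291 genes, and all 34 passed the filter on low counts that left 16630 genes for testing. They were followed in polyadenylated RNA of CD8+ T cells enriched on magnetic particles from spleens of naïve mice. Of 8 libraries, 4 carry the title ATF4 overexpression and the genotype ATF4 Tg/Tg, and 4 are labelled WT. The series' design text instead names ATF4Tg/Tg and E8IcreATF4Tg/Tg mice. E8Icre is known as a Cre driven by an enhancer of the Cd8a gene. Which of these genotypes the WT libraries carry is not stated. Age and sex are not given, and no label says that the 4 libraries of a group came from separate animals, so p-values speak for the spread of these libraries, which may be technical.

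Proteins that enter the ER are folded by chaperones of the HSP70 and HSP90 families, by the lectins calnexin and calreticulin, and by disulfide isomerases. When folding falls behind, the unfolded protein response starts from sensors in the ER membrane. IRE1 splices Xbp1 mRNA into the form that encodes an active factor, ATF6 is cut to release another factor, and PERK phosphorylates eIF2 so that ATF4 is translated. XBP1 and ATF6 are known to induce chaperones and degradation factors, while ATF4 is known mainly for inducing amino acid and stress genes. The comparison therefore asks which ER genes differ between ATF4 overexpression and WT in CD8+ T cells of naïve mice.

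Libraries held 93478686 to 125974143 estimated counts. They fell into 2 sets with differently written column names, replicates 1 and 2 (set 1) and replicates 3 and 4 (set 2) of each group. Libraries of different sets of a group differed more (chi-square per degree of freedom 134 to 230.3) than libraries of the same set (38.5 to 66.3). The labels do not say what the sets are. In ATF4 overexpression replicates 1 and 2 and WT replicates 1 and 4, 4.04 to 4.43% of detected genes had 3 or fewer counts, against 5.76 to 7.17% in the other libraries. Without these 4 libraries, which hold few low counts, 3 members were called higher (Herpud1, Ern1 and Pdia6) and 1 lower (Edem1). That fit sets ATF4 overexpression replicates 3 and 4, both of set 2, against WT replicate 2 of set 1 and WT replicate 3 of set 2. Genotype and set are therefore partly confounded in it, and it has no term for the set. Dnajb9, which differed between the sets, had a log2 fold change of -1.94 in it, against -0.26 over all libraries. Atf4 itself had 445, 427, 228 and 212 CPM (counts scaled to a common library size) in ATF4 overexpression and 285, 308, 165 and 165 CPM in WT. Its log2 fold change of 0.51 did not pass the test over all libraries (adjusted p = 0.37) and passed it with the replicate number as a block (0.48, adjusted p = 2.2e-04). Within the sets it was 0.59 in set 1 (adjusted p = 0.0038) and 0.41 in set 2 (adjusted p = 0.0046). Cd8a and Cd8b1 were abundant in both groups, at 1085 and 947 CPM on average in ATF4 overexpression and 1395 and 1239 CPM in WT, and both were called lower (log2 fold changes -0.36 and -0.39, adjusted p = 0.013 and 0.0055). Without the 4 libraries that hold few low counts neither call stood (-0.35, adjusted p = 0.11 for Cd8a, and -0.38, adjusted p = 0.073 for Cd8b1), and within set 1 Cd8b1 was not called (-0.31, adjusted p = 0.090).

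A gene was called when its adjusted p by edgeR, over all genes tested, was below 0.05. Of the 34 members, 4 were higher in ATF4 overexpression: Herpud1, Ern1, Xbp1 and Pdia6. Of all genes tested, 9.16% were called higher. Edem1 was the 1 member called lower, where 4.89% of all genes were. The other 29 members were not called, among them Hspa5, Hsp90b1, Calr and Canx, the most familiar ER chaperones. The median log2 fold change of the members was 0.09, against -0.02 over all genes tested. With the replicate number as a block 7 members were called higher (13.7% of all genes) and 2 lower (13.5% of all genes). The added calls were Syvn1, Pdia4 and Ero1l higher and Dnajc3 lower. In 5 members every ATF4 overexpression library lay above every WT library, and in 0 members below, against 13.3% and 8.66% of all genes.

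**Figure D1:**
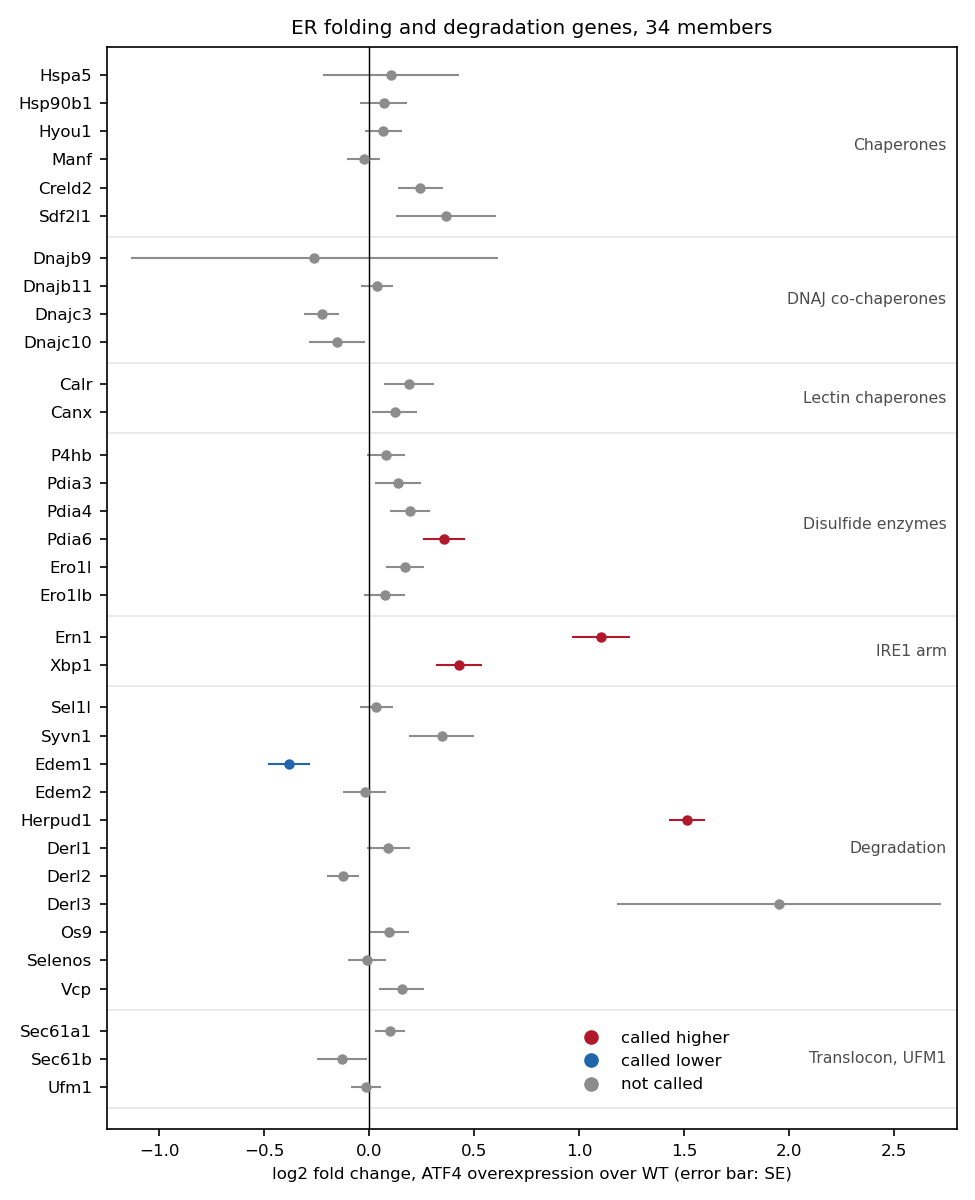
Log2 fold change of each of the 34 members in ATF4 overexpression over WT (horizontal axis, error bars SE), grouped by role; red points were called higher, the blue point lower and grey points were not called. Herpud1 (1.51) and Ern1 (1.10) stand away from the chaperones, none of which passes 0.37, and Derl3 (1.95) has a wide error at very low counts.

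In the IRE1 arm Ern1 and Xbp1 were called higher, and the call of Xbp1 was lost in several fits given below. Ern1 encodes IRE1 (chromosome 11, 106394650 to 106487852, minus strand, GRCm38). It had 24.5, 22.4, 26.7 and 26.0 CPM in ATF4 overexpression libraries, against 10.4, 9.32, 13.5 and 13.0 CPM in WT libraries. All 4 ATF4 overexpression libraries lay above all WT libraries, in both sets. The log2 fold change was 1.10 ± 0.14 (SE), a fold of 2.15 (adjusted p = 7.2e-04). The exact permutation test (two-sided, 70 assignments of libraries) gave p = 0.029, which is the smallest value possible. With any 1 library left out the gene was still called, at adjusted p of 0.0033 or below.

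Xbp1, the transcription factor whose mRNA IRE1 splices (chromosome 11, 5520659 to 5525893, plus strand), had 51.6, 45.8, 43.3 and 41.2 CPM in ATF4 overexpression. WT libraries had 38.6, 36.2, 30.3 and 30.1 CPM. The groups did not overlap, and in each group the set 1 libraries were the higher ones. The log2 fold change was 0.43 ± 0.11 (adjusted p = 0.026). The call was lost without ATF4 overexpression replicate 1 or 2 or WT replicate 3 or 4 (adjusted p = 0.067, 0.053, 0.072 and 0.071, with log2 fold changes from 0.36 to 0.43), and without the 4 libraries that hold few low counts (0.34, adjusted p = 0.16). The table gives 1 value per gene, so spliced and unspliced Xbp1 are not separated and IRE1 activity was not measured.

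Herpud1 showed the largest change of the called members. It encodes an ER membrane protein that helps assemble the degradation complex around the ubiquitin ligase HRD1 (chromosome 8, 94386438 to 94395377, plus strand). It had 202, 186, 175 and 173 CPM in ATF4 overexpression, against 56.7, 65.6, 66.8 and 68.5 CPM in WT. Every ATF4 overexpression library lay far above every WT library. The log2 fold change was 1.51 ± 0.08, a fold of 2.86 (adjusted p = 3.7e-06; exact permutation p = 0.029), with 1.70 in set 1 and 1.36 in set 2, and the call held in each fit without 1 library. Per kilobase of exon, Herpud1 stood at 78.8 CPM in ATF4 overexpression and 27.6 CPM in WT. On that scale it ranked in ATF4 overexpression above P4hb (72.8 CPM per kilobase) and Canx (57.4), and in WT below both (68.9 and 52.7).

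**Figure D2:**
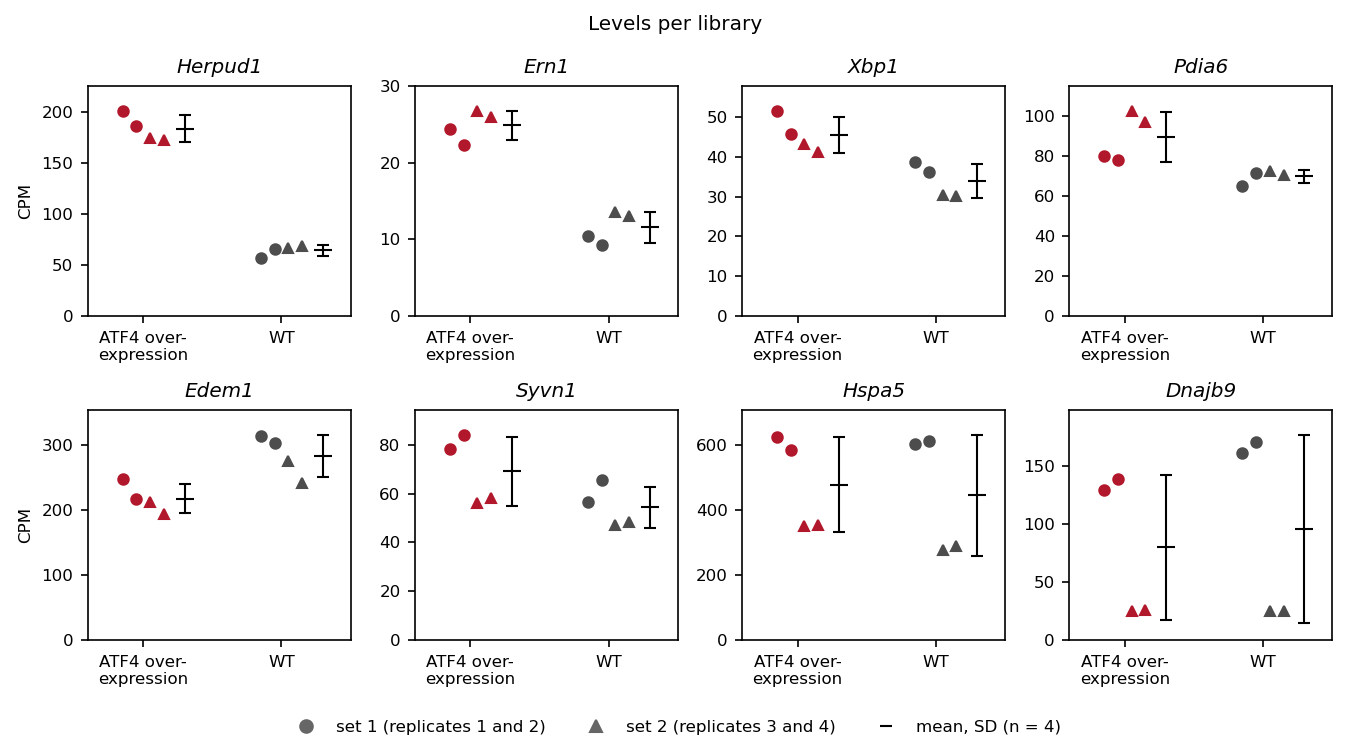
CPM of 8 members in each library (vertical axes start at 0), ATF4 overexpression left and WT right; circles are set 1, triangles set 2, and the bar beside each group gives mean and SD (n = 4). Herpud1 and Ern1 separate the groups in both sets, while Hspa5 and Dnajb9 separate the sets in both groups.

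Among the other degradation factors Edem1 fell. Edem1, a lectin-like factor that hands misfolded glycoproteins to degradation, had 247, 216, 212 and 194 CPM in ATF4 overexpression and 313, 303, 275 and 241 CPM in WT. The highest ATF4 overexpression library lay above the lowest WT library, so the groups overlapped, while within each set all ATF4 overexpression libraries were below WT. Its log2 fold change of -0.38 ± 0.10 was called (adjusted p = 0.033; exact permutation p = 0.057). The call held only without ATF4 overexpression replicate 1 or WT replicate 4 among the 8 fits without 1 library. The adjusted p without ATF4 overexpression replicates 2, 3 and 4 was 0.065, 0.081 and 0.094, and without WT replicates 1, 2 and 3 it was 0.090, 0.086 and 0.070. With upper-quartile normalization the call was also lost (-0.34, adjusted p = 0.053). In the replicate block it stood (-0.38, adjusted p = 3.3e-04).

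Syvn1, which encodes the HRD1 ligase itself, had 78.3, 84.1, 56.0 and 58.02 CPM in ATF4 overexpression against 56.4, 65.5, 47.2 and 48.4 CPM in WT. Within each set both ATF4 overexpression libraries were higher, and the groups overlapped because set 1 was higher throughout. It was not called over all libraries (log2 fold change 0.35, adjusted p = 0.19) and was called with the replicate block (0.33 ± 0.05, adjusted p = 0.0024), in set 1 (0.45, adjusted p = 0.035) and in set 2 (0.25, adjusted p = 0.033). Sel1l, the partner that stabilises HRD1, was at 83.8 ± 4.91 CPM in ATF4 overexpression and 81.8 ± 6.39 CPM in WT (SD, n = 4; log2 fold change 0.03 ± 0.08). The channel protein Derl1 was at 85.6 ± 9.58 and Derl2 at 42.9 ± 2.07 CPM in ATF4 overexpression, against 80.3 ± 7.92 and 46.7 ± 3.23 CPM in WT. Edem2, Os9, Selenos and Vcp had log2 fold changes of -0.02, 0.09, -0.01 and 0.15, none called. Os9 is a lectin that recognises trimmed glycans on degradation substrates, and Vcp is the ATPase that pulls them from the membrane.

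Derl3, a derlin known from secretory cells, was the least abundant member. It had 63, 78, 30 and 46 counts in ATF4 overexpression and 20, 4, 19 and 7 counts in WT. The groups did not overlap, yet the log2 fold change of 1.95 ± 0.77 was not called (adjusted p = 0.13). Plasma cells are rich in ER chaperone transcripts, and some of their listed markers were higher in ATF4 overexpression. Of 11 tested plasma cell markers 6 were higher and 0 lower, where 9.16% and 4.89% of all genes were. With the replicate block 10 were higher (13.7% of all genes). The median log2 fold change of the 11 markers over all libraries was 2.71. Sdc1 was at 4.51 CPM in ATF4 overexpression and 0.312 CPM in WT (3.84, adjusted p = 4.3e-04). Igha was at 7.16 and 0.0434 CPM (7.32, adjusted p = 0.0012). It was not called by limma-voom (adjusted p = 0.26) or within set 1 (adjusted p = 0.061). Tnfrsf17, a receptor that defines plasma cells, had 0 counts in every library. The summed level of the listed markers was 626 to 1059 CPM in ATF4 overexpression and 623 to 778 CPM in WT. Most of it was Ighm, which was not called (log2 fold change -0.10, adjusted p = 0.72). In the bulk RNA used here fewer cells of a type and less RNA per cell cannot be told apart, and the part of these cells in the values of Derl3 or other members was not tested.

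Among 10 luminal chaperones and co-chaperones, edgeR without the block and DESeq2 each called 0. Over all genes edgeR called 9.16% higher and 4.89% lower. Creld2 and Dnajc3 had an unadjusted p below 0.05. Hspa5, the ER HSP70 known as BiP and GRP78, had 624, 584, 350 and 353 CPM in ATF4 overexpression and 602, 611, 278 and 288 CPM in WT. The sets differed far more than the groups. Its log2 fold change over all libraries was 0.10 ± 0.32 (adjusted p = 0.89), with 0.03 in set 1 (adjusted p = 0.91) and 0.32 in set 2 (adjusted p = 0.0091). Hsp90b1, the ER HSP90 known as GRP94, had 339, 386, 395 and 446 CPM in ATF4 overexpression against 380, 428, 310 and 376 CPM in WT. In set 1 the WT libraries were on average the higher ones, and in set 2 the ATF4 overexpression libraries were. Hyou1, the nucleotide exchange partner of BiP, was at 104 ± 11.8 CPM in ATF4 overexpression and 99.5 ± 4.62 CPM in WT.

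Sdf2l1, a cofactor of BiP and its DNAJ partners, had 7.84, 7.05, 13.5 and 13.8 CPM in ATF4 overexpression against 8.24, 6.80, 8.85 and 8.89 CPM in WT. The 2 ATF4 overexpression libraries of set 2 lay above all others. Its log2 fold change was 0.37 (adjusted p = 0.39), and in set 2 it was 0.63 (adjusted p = 0.010). Creld2, which binds unfolded proteins and assists disulfide exchange, was at 20.005 ± 0.996 CPM in ATF4 overexpression and 16.9 ± 1.92 CPM in WT (0.24, adjusted p = 0.18). Manf, a small secreted stress protein, was at 46.5 ± 2.51 CPM in ATF4 overexpression and 47.4 ± 3.62 CPM in WT.

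Among the DNAJ co-chaperones, which deliver clients to BiP, Dnajc3 (p58IPK) had 156, 148, 169.8 and 171 CPM in ATF4 overexpression and 180.5, 170.1, 198 and 207 CPM in WT. Within each set both ATF4 overexpression libraries were lower. Its log2 fold change of -0.23 was not called over all libraries (adjusted p = 0.11) and was called with the replicate block (-0.23 ± 0.04, adjusted p = 0.0030). Dnajb9 (ERdj4), known as a target of spliced XBP1, had 130, 139, 25.4 and 25.6 CPM in ATF4 overexpression against 162, 171, 25.3 and 25.4 CPM in WT. In set 2 the libraries of both groups lay within 1 CPM of each other, and in set 1 both ATF4 overexpression libraries were lower (-0.28, adjusted p = 0.096). Dnajb11 and Dnajc10 had log2 fold changes of 0.04 ± 0.08 and -0.15 ± 0.13.

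The lectin chaperones hold glycoproteins during folding. Calr, the member with the highest level per kilobase of exon (194 CPM in ATF4 overexpression and 170 CPM in WT), had 459, 571, 547 and 656 CPM in ATF4 overexpression and 477, 563, 424 and 495 CPM in WT. Canx had 234, 230.0, 300.5 and 313 CPM in ATF4 overexpression and 244, 245, 249.5 and 251 CPM in WT. The 4 WT libraries of Canx were nearly equal, and the ATF4 overexpression libraries lay below them in set 1 and above them in set 2. Neither gene was called over all libraries (log2 fold changes 0.19 and 0.12), and Canx was called in set 2 (0.30, adjusted p = 0.013).

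Of 6 disulfide enzymes 1 was called higher and 0 lower, where 9.16% and 4.89% of all genes were. Pdia6, an isomerase that also acts on the IRE1 sensor (chromosome 12, 17266545 to 17284770, plus strand), had 79.99, 77.7, 102 and 97.0 CPM in ATF4 overexpression against 64.9, 71.2, 72.2 and 70.4 CPM in WT. The groups did not overlap, and the set 2 libraries of ATF4 overexpression were the highest. The log2 fold change was 0.36 ± 0.10 (adjusted p = 0.039; exact permutation p = 0.029). The call was lost without ATF4 overexpression replicate 3 or 4 (adjusted p = 0.093 and 0.11), without WT replicate 1, 2, 3 or 4 (adjusted p = 0.10, 0.077, 0.055 and 0.082), and within set 1 (0.25, adjusted p = 0.14). With the replicate block it stood (0.35, adjusted p = 0.0053). Pdia6 shares 50 exon bases with Atp6v1c2 on the other strand.

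Pdia4, another isomerase, had 86.9, 86.0, 99.2 and 109 CPM in ATF4 overexpression and 76.2, 81.5, 82.5 and 92.4 CPM in WT. Within each set both ATF4 overexpression libraries were higher. It was not called over all libraries (0.20, adjusted p = 0.23) and was called with the replicate block (0.19, adjusted p = 0.018). Ero1l, the oxidase that recharges the isomerases, had 58.3, 55.003, 65.4 and 61.0 CPM in ATF4 overexpression and 49.0, 48.5, 55.8 and 59.9 CPM in WT. It was not called over all libraries (0.17, adjusted p = 0.28) and was called with the replicate block (0.17, adjusted p = 0.047). With the library set as a term in place of the block, Pdia4 (adjusted p = 0.039) and Ero1l (adjusted p = 0.047) were called as well. Pdia3, the isomerase that works with the lectin chaperones, had 269, 279, 362 and 368 CPM in ATF4 overexpression and 281, 289, 286 and 306 CPM in WT, with a call in set 2 (0.31, adjusted p = 0.013). P4hb and Ero1lb had log2 fold changes of 0.08 and 0.07.

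The translocon subunits Sec61a1 and Sec61b, through which nascent proteins enter the ER, and Ufm1, a ubiquitin-like modifier of ER ribosomes, had log2 fold changes of 0.10, -0.13 and -0.02. None was called. Sec61a1 stood at 163 ± 2.42 CPM in ATF4 overexpression and 152 ± 12.0 CPM in WT (SD, n = 4).

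Promoter sequences show how the members differ in known stress elements. RefSeq promoters on GRCm38.p6, from 250 bases before to 50 after the start, were matched for 30 members, 2 of them through a synonym. Both strands were searched for 4 motifs. The ER stress response element (ERSE), bound by ATF6 with NF-Y, was CCAAT and CCACG with 9 bases between them. The others were ERSE-II (ATTGGNCCACG), the unfolded protein response element UPRE (TGACGTGG), and the C/EBP-ATF composite element CARE (TTGCATCA), through which ATF4 acts on amino acid genes. ERSE was found in 10 of 30 members (33.3%) and in 0 of 110 other listed ER genes with a promoter, counted by gene. Counted by promoter, it was found in 0.119% of all 32851 promoters. The element was defined on chaperone promoters such as that of Hspa5, so its presence here is background. Of the 10, Pdia6 was called higher and 0 lower over all libraries, against 9.16% and 4.89% of all genes, and their median log2 fold change was 0.16. With the replicate block 2 were called higher, Pdia6 and Syvn1, and 1 lower, Dnajc3, against 13.7% and 13.5% of all genes. CARE was found in 1 of 30 members, Herpud1, and in 0.895% of all promoters. ERSE-II was found in Herpud1 and Dnajb11 (0.0365% of all promoters) and UPRE in Vcp (0.676%). Of 17 matched members without any of the 4 motifs in this window, 2 were called higher, Ern1 and Xbp1, and 1 lower, Edem1. The shares of all genes over all libraries were again 9.16% and 4.89%. With the replicate block 4 were called higher (Ern1, Xbp1, Pdia4 and Ero1l) and 1 lower (Edem1), against 13.7% and 13.5% of all genes. No matches of different motifs overlapped in a member.

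The windows below show the promoter that holds CARE (Herpud1) and 3 that hold ERSE (Pdia6, called, and Hsp90b1 and Calr, not called). The others are those of Ern1 and Xbp1, the called genes of the IRE1 arm. Motif matches are in capitals, and each window is read 5′ to 3′ on the strand of the gene. Each is 170 bases long and ends before the outermost annotated start. On GRCm38.p6 they lie at chr8:94386259-94386428 (plus), chr12:17266375-17266544 (plus), chr10:86705510-86705679 (minus), chr8:84846935-84847104 (minus), chr11:106487853-106488022 (minus) and chr11:5520471-5520640 (plus).
Herpud1: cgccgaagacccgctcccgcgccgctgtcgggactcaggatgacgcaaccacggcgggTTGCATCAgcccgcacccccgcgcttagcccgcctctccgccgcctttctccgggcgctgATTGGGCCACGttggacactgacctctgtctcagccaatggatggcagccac
Pdia6: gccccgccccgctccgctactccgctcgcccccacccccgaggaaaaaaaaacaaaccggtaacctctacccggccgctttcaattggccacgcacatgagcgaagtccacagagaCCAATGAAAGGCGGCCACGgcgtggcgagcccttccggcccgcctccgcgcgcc
Hsp90b1: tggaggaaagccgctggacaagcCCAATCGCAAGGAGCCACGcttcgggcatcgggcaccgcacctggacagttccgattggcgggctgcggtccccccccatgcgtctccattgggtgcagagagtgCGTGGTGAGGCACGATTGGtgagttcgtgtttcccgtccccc
Calr: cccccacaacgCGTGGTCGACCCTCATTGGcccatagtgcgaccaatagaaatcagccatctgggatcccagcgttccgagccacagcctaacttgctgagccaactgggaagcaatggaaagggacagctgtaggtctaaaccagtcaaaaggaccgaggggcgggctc
Ern1: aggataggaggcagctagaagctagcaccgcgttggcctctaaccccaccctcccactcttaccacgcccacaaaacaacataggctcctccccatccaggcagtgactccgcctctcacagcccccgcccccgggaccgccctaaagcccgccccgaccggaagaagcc
Xbp1: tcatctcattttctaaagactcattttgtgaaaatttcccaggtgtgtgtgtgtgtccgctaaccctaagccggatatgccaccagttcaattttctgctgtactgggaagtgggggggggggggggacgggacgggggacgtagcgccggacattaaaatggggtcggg

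In Herpud1 the CARE match lay 112 to 105 bases and the ERSE-II match 52 to 42 bases before the start. Hsp90b1 held 2 ERSE matches, the nearer one on the opposite strand, and the match in Calr was also on the opposite strand. A match describes letters in the window and shows neither binding nor a cause.

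**Figure D3:**
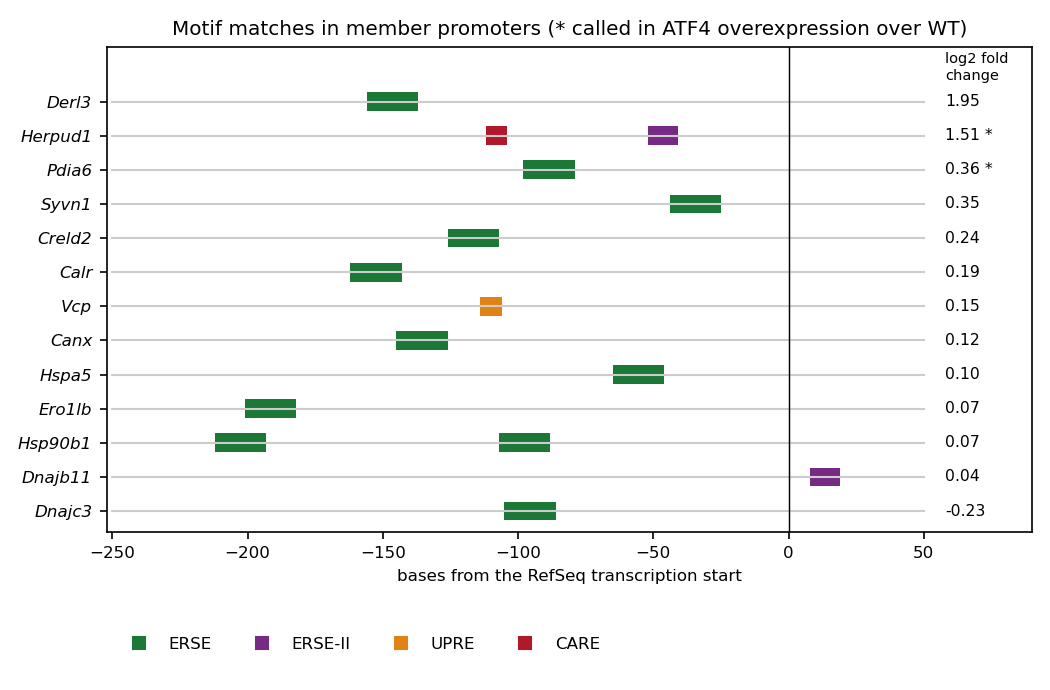
Positions of motif matches (coloured blocks) from 250 bases before to 50 after the RefSeq start (horizontal axis, bases) in the 13 members with any match, ordered by log2 fold change in ATF4 overexpression over WT (right, * called). Herpud1 alone carries CARE, and ERSE appears over the range from 1.95 in Derl3 to -0.23 in Dnajc3.

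The library set moved several members more than the genotype did. In a fit of genotype and set together, 5 members were higher in set 1 than in set 2 (11.3% of all genes) and 13 lower (12.2% of all genes). This comparison was added after the data were seen. Dnajb9 was 5.87-fold higher in set 1 and Hspa5 1.92-fold (adjusted p = 4.2e-09 and 5.5e-06). Syvn1, Xbp1 and Edem1 were the others, at 1.35-, 1.19- and 1.17-fold. Among the 13 lower members were Sdf2l1 (0.679-fold) and Dnajc10 (0.788-fold). Over all 8 libraries genotype and set are balanced, with 2 libraries of each group in each set. What set 1 and set 2 were is not stated.

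**Figure D4:**
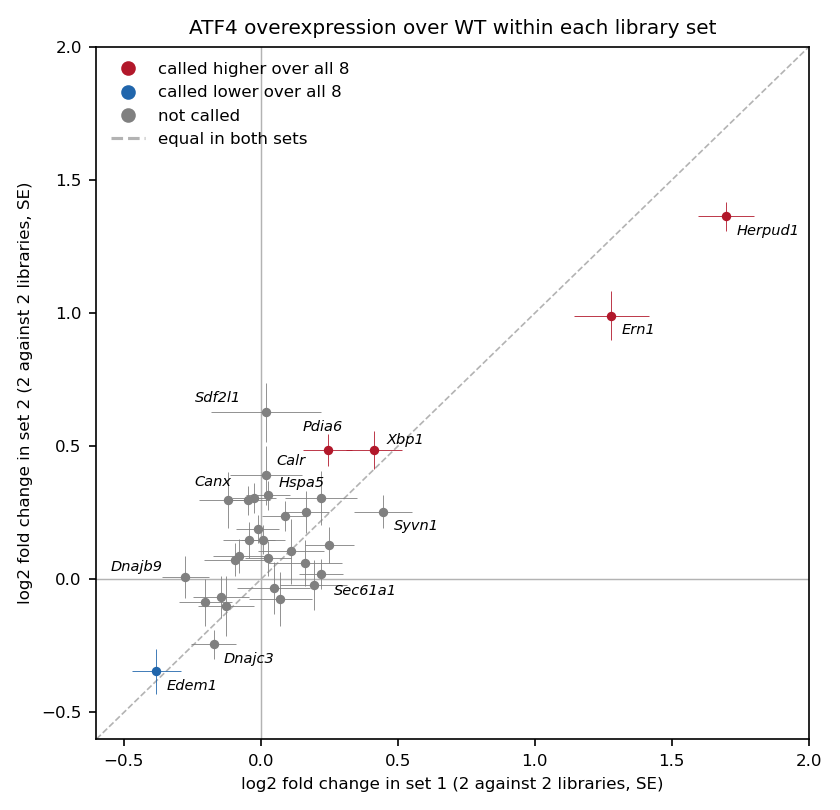
Log2 fold change of ATF4 overexpression over WT in set 1 (horizontal) and set 2 (vertical) for 33 members, with SE from 2 against 2 libraries; Derl3 is left out for its wide error. Herpud1, Ern1 and Xbp1 are high in both sets and Edem1 low in both, while Sdf2l1, Calr, Hspa5 and Canx lie near 0 in set 1 and between 0.30 and 0.63 in set 2.

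Within set 1, 4 members were called higher (6.75% of all genes) and 1 lower (3.07%). Within set 2, 10 were called higher (14.3% of all genes) and 2 lower (8%). Ern1, Xbp1, Syvn1 and Herpud1 were higher and Edem1 was lower in both sets. The 6 others called higher in set 2 were Hspa5, Sdf2l1, Canx, Pdia3, Pdia6 and Vcp, which are mostly folding genes. The difference between the sets was tested as an interaction. By edgeR the interaction of genotype and set was called in 0 of 34 members and in 0.998% of all genes, the smallest adjusted p being 0.087 for Canx. Without adjustment 9 members had p below 0.05. DESeq2 called 3 members, Hspa5 (adjusted p = 0.042), Canx (0.0085) and Pdia3 (0.031). Without a low-count filter edgeR called 1, Hsp90b1 (adjusted p = 0.016).

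Markers of several other cell types and of cycling cells were higher in ATF4 overexpression. Of all genes, 9.16% were called higher and 4.89% lower (13.7% and 13.5% with the replicate block). The summed level of 15 cycling cell markers was 542, 496, 1057 and 1078 CPM in ATF4 overexpression and 311, 295, 358 and 349 CPM in WT, with 12 called higher and 0 lower. Erythroid markers summed to 84.1, 83.5, 287 and 275 CPM in ATF4 overexpression, against 12.0 to 16.4 CPM in WT, with 8 of 11 tested called higher. In ATF4 overexpression both sums were highest in set 2. Members went both ways in that group. Pdia6, Sdf2l1, Canx and Pdia3 were highest in set 2, while Hspa5, Dnajb9, Herpud1, Xbp1 and Syvn1 were highest in set 1. B cell markers summed to 130 to 351 CPM in ATF4 overexpression and 39.9 to 83.2 CPM in WT (8 of 12 higher) and myeloid markers to 141 to 303 CPM and 24.7 to 80.1 CPM (6 of 12 higher). NK cell markers summed to 556, 500, 277 and 289 CPM in ATF4 overexpression and 176, 192, 298 and 319 CPM in WT. The ATF4 overexpression sums were thus above WT in set 1 and below WT in set 2. Over all libraries 3 of 10 were higher, and 0 with the replicate block. Within set 1, 8 were higher (6.75% of all genes). Within set 2, 3 were higher and 1 lower (14.3% and 8% of all genes). Dendritic cell markers summed to 247 to 288 CPM and 233 to 253 CPM (1 of 10 higher, 2 with the block). Most of that sum was Ccr9 (197 and 189 CPM on average), which was not called, while the list's median log2 fold change was 1.45. Platelet markers summed to 68.1 to 82.3 CPM and 26.7 to 36.7 CPM (5 of 7), mostly Itgb3 (62.1 and 29.1 CPM on average). CD4 T cell markers summed to 44.9 to 78.6 CPM and 19.1 to 31.2 CPM (4 of 6). CD8 T cell markers summed to 5984 to 6338 CPM in ATF4 overexpression and 7456 to 7827 CPM in WT, with 6 of 11 called lower. The part of these cells in the values of the members was not tested.

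Beyond the 34 members, 147 other ER genes in 5 lists were followed. Of 139 tested, 9 were higher (9.16% of all genes were) and 2 lower (4.89% of all genes), with a median log2 fold change of -0.01. With the replicate block 17 were higher and 16 lower, against 13.7% and 13.5% of all genes, spread over unfolded protein response signalling (8 and 3), other folding enzymes (5 and 6), other degradation genes (4 and 2) and translocon and glycosylation genes (0 and 5). Over all libraries without the block, 6 of the 9 rises lay in the list of unfolded protein response signalling, where 20 genes were tested and 0 were lower. Atf6, the sensor of the ATF6 arm, had 28.5, 28.1, 31.8 and 29.3 CPM in ATF4 overexpression against 11.5, 11.2, 18.7 and 17.7 CPM in WT (log2 fold change 0.99 ± 0.17, adjusted p = 0.0042). Its groups did not overlap, and without the 4 libraries that hold few low counts its call was lost (1.03, adjusted p = 0.068). Eif2ak3, which encodes the sensor PERK, and Atf6b were not called (0.03, adjusted p = 0.92, and 0.06, adjusted p = 0.82). Ddit3 (CHOP), a factor downstream of ATF4, rose by 1.32 to 50.8 ± 9.93 CPM in ATF4 overexpression, against 20.4 ± 3.75 CPM in WT. Trib3, a pseudokinase induced by ATF4, and Bbc3, the cell death protein PUMA, rose by 5.84 and 1.23. Ddit3, Trib3 and Bbc3 were called in every fit without 1 library.

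Other folding enzymes were higher in 2 of 41 and lower in 1, where 9.16% and 4.89% of all genes were. Ppic, a cyclophilin, fell to 16.4 ± 0.80 CPM in ATF4 overexpression, against 32.4 ± 5.93 CPM in WT (-0.98 ± 0.13, adjusted p = 0.0010). Both that rose were near absent in WT: Mzb1, a chaperone of B lineage cells, was at 2.27 ± 1.18 CPM in ATF4 overexpression and Fkbp9 at 1.10 ± 0.837 CPM. WT libraries averaged 0.0422 CPM of Mzb1 and 0.0517 CPM of Fkbp9. Leaving out 1 library ended the call of Fkbp9 (adjusted p = 0.046) in 6 of 8 fits, where adjusted p reached 0.13, and kept it without ATF4 overexpression replicate 2 or WT replicate 4. By limma-voom Fkbp9 was not called (adjusted p = 0.15). Without the 4 libraries that hold few low counts, the calls of Ppic (adjusted p = 0.063) and Mzb1 (adjusted p = 0.16) were lost.

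Other degradation genes were higher in 1 of 37 and lower in 1, where 9.16% and 4.89% of all genes were. Rhbdd1, a rhomboid protease of the ER, was at 43.6 ± 6.08 CPM in ATF4 overexpression and 23.1 ± 7.74 CPM in WT (0.92, adjusted p = 0.021), a call lost without ATF4 overexpression replicate 3 or 4 or WT replicate 1 (adjusted p = 0.073, 0.053 and 0.052). Ngly1, which removes glycans from retrotranslocated proteins, was at 64.4 ± 3.33 CPM in ATF4 overexpression and 77.8 ± 4.18 CPM in WT (-0.27, adjusted p = 0.028), which in the 8 fits lacking a library passed in 2, those lacking ATF4 overexpression replicate 1 or WT replicate 2, and otherwise had adjusted p as high as 0.080. Without the 4 libraries that hold few low counts neither was called (Rhbdd1 1.03, adjusted p = 0.11, and Ngly1 -0.22, adjusted p = 0.25). Without the block, edgeR called 0 of 34 translocon and glycosylation genes (2 had an unadjusted p below 0.05, and DESeq2 called 1 lower). It called 0 of 7 genes of UFM1 conjugation, where 0 had an unadjusted p below 0.05 and DESeq2 called 0. With the block 5 of the translocon and glycosylation genes were lower, where 13.5% of all genes were. In set 2 alone 2 of them were higher, where 14.3% of all genes were.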

How the data were processed

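The deposited table holds 1 estimated count per symbol and library. The submitters' processing notes name Salmon and GRCm38.p6, and the sources used here do not give the annotation release, strand setting or filters. Reads shared by overlapping genes or copies are divided by a model, and 10 members share exon bases with another gene. Of the 8 value columns 0 were unused.

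Estimated counts were rounded and tested with edgeR 4.0.16 in R 4.3.3 (quasi-likelihood F test, robust, TMM, filterByExpr, group only), with Benjamini-Hochberg adjustment over all 16630 genes. CPM used TMM-scaled library sizes, and standard errors came from the F statistic. Alternatives were DESeq2 1.42.0, limma-voom 3.58.1, other normalizations and filters, blocks, sets and leaving out libraries. Libraries holding few low counts had under 5% of detected genes at 3 or fewer counts, a limit set after seeing the data. The fit without them leaves genotype and set unbalanced. The permutation test used log2(CPM + 0.5).

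The replicate number was used as a block because same-numbered libraries deviated together (correlations 0.22, 0.20, 0.29 and 0.23 for replicates 1 to 4), which follows the library sets. Counts of libraries within a group differed by more than sampling noise (smallest chi-square per degree of freedom 38.5), so none was merged as the same library deposited again, which does not show that they are separate animals. Intervals are between libraries only.

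Members and lists were chosen with earlier results of these data known. Named were all members and up to 4 called genes of each other list with the smallest p-values. Also named were Atf4, Cd8a, Cd8b1, Eif2ak3, Atf6b, Ighm, Tnfrsf17 and Ccr9. Positions are from GENCODE M21 on GRCm38, promoters from RefSeq on GRCm38.p6. A few listed symbols had no row in the table and were not analysed here.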

Additional observations from a re-analysis of the deposited data

Results flagged for a closer look

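For 2 B lineage genes WT replicate 2 was the one WT library above 0, so that any count at all would have set it apart. Mzb1, a chaperone of B lineage cells, was at 0.169 CPM in WT replicate 2 and at 0 CPM in the other WT libraries. Ighg2c, an immunoglobulin gene, was at 0.268 CPM in WT replicate 2 and at 0 CPM in the others. Of 160 groups of 4 libraries considered in this way, 2 stood out. A group whose libraries all had the same value was passed over. The limit used holds for normally spread values, so the count was not compared with chance. Among the 68 groups of the 34 ER members 0 stood out.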

How the results depend on the processing

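Herpud1 and Ern1 were called higher under all 19 alternatives to the fit over 8 libraries. Among the members and the named genes checked with them, no called gene changed sign. The 4 members called higher became 7 with the replicate block and with the library set as a term, 10 in set 2, and 2 to 3 without 1 library. The 1 called lower became 0 with upper-quartile factors, 2 with the replicate block, the set term and in set 2, and 0 to 1 without 1 library. Over all genes 1524 were higher, 2327 with the set term, 2434 in set 2, and 1089 to 1431 without 1 library. The 813 lower genes became 2237 with the replicate block, 1927 with the set term, 528 in set 1, 1365 in set 2, 333 without the 4 libraries that hold few low counts, and 518 to 677 without 1 library. The replicate block moved calls to 2279 higher and 2237 lower. Of the other ER genes 9 were higher, 16 with DESeq2 and with the set term, 17 with the replicate block, 18 in set 2, and 6 to 9 without 1 library. The 2 lower became 5 with DESeq2, 1 without a low-count filter, 16 with the replicate block, 14 with the set term, 0 without the 4 libraries, and 1 to 3 without 1 library. Interactions of members were 0, 1 without a low-count filter and 3 with DESeq2, and 0 to 0 without 1 library. Over the other settings these counts stayed within 1.5 times. The causes were not tested. Values near 0.1 CPM, such as those of Derl3, are limited by counts.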
